A study of Mus musculus with 4 samples.

Results

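The phagocyte NADPH oxidase was followed through its genes Cybb, Cyba, Ncf1, Ncf4 and Rac2 in single spleen cells of wild-type mice and of mice with a mutant cyclin D3. These 5 genes were taken by symbol from the 32285 genes of the deposited tables. All 4 mice were female C57BL/6J. The 2 D3TA mice were heterozygous for a germline knock-in of Ccnd3, made by CRISPR/Cas9, that puts alanine at residue 283 of cyclin D3 in place of threonine, and the 2 WT mice carried no such allele. In each genotype 1 mouse was 12 and the other 16 months old, ages at which knock-in animals have a severe myeloproliferative neoplasm, a clonal excess of myeloid blood cells. The labels do not say which library came from which age. The allele is present in every cell of the body, so a difference in one cell type may start in that type or in another.

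The oxidase turns oxygen into superoxide at the membrane of a phagocyte and so arms neutrophils and macrophages against swallowed microbes. Cybb encodes gp91phox (NOX2), the membrane protein that carries electrons from NADPH to oxygen, and Cyba encodes p22phox, the smaller membrane partner that stabilises it. Ncf1 (p47phox) and Ncf4 (p40phox) are cytosolic organisers that move to the membrane when the cell is stimulated, and Rac2, a GTPase of blood cells, joins them there. Loss of the oxidase causes chronic granulomatous disease. Neutrophils acquire the membrane cytochrome during granule formation in the bone marrow, and B cells express the enzyme at a lower level.

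The genes lie on 4 chromosomes, with positions given here from the GENCODE annotation of GRCm38. Cybb (ENSMUSG00000015340) spans chrX:9435252-9487771 on the minus strand and Cyba (ENSMUSG00000006519) chr8:122424776-122432930 on the minus strand. Ncf1 (ENSMUSG00000015950) spans chr5:134220053-134229625 on the minus strand. Ncf4 (ENSMUSG00000071715) spans chr15:78244801-78262580 on the plus strand and Rac2 (ENSMUSG00000033220) chr15:78559167-78572783 on the minus strand. The 250 bases before the RefSeq start were found for 3 of the 5 genes in the GRCm38.p6 table. Cybb, Cyba and Ncf1 differed in how far their level moved along the neutrophil series described below, and a relation of these windows to that was not tested. Capitals mark GGAA or its reverse complement TTCC, the core letters read by PU.1 and other ETS factors. They also mark CCAAT or its reverse complement ATTGG. Both were searched on both strands, with no overlap between them.
Cybb, chrX:9469325-9469574, minus strand: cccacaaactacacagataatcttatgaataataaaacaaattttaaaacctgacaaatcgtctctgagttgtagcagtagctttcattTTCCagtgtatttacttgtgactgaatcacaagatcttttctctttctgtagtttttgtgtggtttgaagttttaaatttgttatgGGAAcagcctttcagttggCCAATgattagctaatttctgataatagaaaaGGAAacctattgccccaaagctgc
Cyba, chr8:122432941-122433190, minus strand: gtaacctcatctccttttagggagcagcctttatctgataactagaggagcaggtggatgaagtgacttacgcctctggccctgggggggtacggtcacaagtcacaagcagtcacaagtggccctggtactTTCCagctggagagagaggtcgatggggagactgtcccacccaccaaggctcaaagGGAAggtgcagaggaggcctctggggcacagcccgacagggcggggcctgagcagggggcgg
Ncf1, chr5:134229626-134229875, minus strand: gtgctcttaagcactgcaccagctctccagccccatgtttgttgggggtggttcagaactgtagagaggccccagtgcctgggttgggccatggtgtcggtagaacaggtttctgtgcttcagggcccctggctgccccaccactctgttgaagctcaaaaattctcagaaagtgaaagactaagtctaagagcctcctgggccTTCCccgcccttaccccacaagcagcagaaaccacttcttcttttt

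With the last base before the start counted as -1, the Cybb window held GGAA at -75 to -72 and at -24 to -21. It also held the reverse complement of GGAA at -161 to -158, and CCAAT at -56 to -52. The Cyba window held GGAA at -62 to -59 and its reverse complement at -118 to -115. The Ncf1 window held the reverse complement of GGAA at -46 to -43. CCAAT in either direction was found in the Cybb window and in neither of the other 2. Of 32851 upstream windows of the same length, 93.4% held GGAA and 33.8% held CCAAT in either direction, so these letters are common and their presence is a description of the windows. GC made up 34% of the Cybb window, 60% of that of Cyba and 54.4% of that of Ncf1. The Cybb window lies inside the longer GENCODE span of the gene, so the 2 annotations place its start differently.

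Each mouse gave 1 library of unique molecular identifiers (UMIs, counted RNA molecules), of 81416981 to 143811696 UMIs in 9888 to 25829 barcodes. After filters and removal of doublets 52330 cells remained. WT replicate 1 stood apart, with a median of 1394 UMIs per kept cell against 7698 to 8111 in the other 3 libraries. Between 32 and 127 cell barcodes were shared by any pair of libraries, at most 0.839% of the smaller one. Clusters were named from marker genes that did not include the 5 oxidase genes, and 6 clusters stayed unnamed. These held 38.7% of the cells of D3TA replicate 1, 9.67% of D3TA replicate 2, 5.41% of WT replicate 1 and 3.56% of WT replicate 2. Immature neutrophil-like cells numbered 3 and 14 in the WT libraries against 1522 and 1067 in the D3TA libraries, and precursor-like cells 45 and 8 against 1081 and 654. Levels below are in CPM, the UMIs of a gene scaled to a fixed total for all UMIs of the class, in each library with at least 20 cells of the class. Whether the sequenced end or the length of a transcript affects these counts is not given in the sources used here, so levels were compared for 1 gene across cells and never between genes.

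Cybb had the widest span between class means, 86.4-fold, followed by Ncf1 with 80.1-fold. Immature neutrophil-like cells, marked by the granule genes Ltf, Camp and Ngp, had 2453 and 3041 CPM in D3TA replicates 1 and 2. Precursor-like cells had 852 in WT replicate 1, 1150 in D3TA replicate 1 and 1452 in D3TA replicate 2. Monocyte-like cells had 699 and 705 in the WT and 732 and 828 in the D3TA libraries. The immature class lay above both others in each library. The precursor-like class lay above monocyte-like cells only as the class was cut. In WT replicate 1, 39 of its 45 cells belonged to a cluster with 178 CPM, so the 852 rested mostly on the 6 cells of the other cluster, and a finer precursor-like group had 281 and 391 CPM in the D3TA libraries, below monocyte-like cells. Macrophage-like cells followed with 446 ± 94.8 CPM (SD, n = 4), then B-cell-like cells with 418 ± 92.9 (n = 4) and mature neutrophil-like cells with 307 ± 217 (n = 4), whose ranges overlapped. T-cell-like cells had 50.1 to 83.9 CPM and erythroid-like cells 15.7 to 45.1. The WT immature neutrophil-like cells, too few for a class value, gave 1864 CPM from 3 cells and 2310 from 14 cells.

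Cyba, the partner of Cybb in the membrane, was spread more evenly, with a 13.9-fold span between class means. Immature neutrophil-like cells had 1765 and 1258 CPM in the D3TA libraries, and precursor-like cells had 1227 in WT replicate 1 and 1630 and 1204 in D3TA replicates 1 and 2. Of the 45 precursor-like cells of WT replicate 1, 39 belonged to a cluster with 581 CPM. Monocyte-like cells had 861 and 1005 in the WT and 1308 and 819 in the D3TA libraries, and macrophage-like cells 747 and 958 against 1308 and 591. B-cell-like cells had 500 and 582 against 856 and 402. Each class overlapped the next one down in the order of means except T-cell-like cells (224 to 470) above erythroid-like cells (47.1 to 175). p22phox is also the partner of other NADPH oxidases, and of the listed genes of those enzymes Nox1 and Noxo1 had the highest mean level in the whole spleen.

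Of the cytosolic organisers, Ncf1 was the more restricted to the neutrophil lineage. Its level was 768 and 941 CPM in D3TA immature neutrophil-like cells. Mature neutrophil-like cells had 252 and 453 in the WT and 513 and 565 in the D3TA libraries, and precursor-like cells 379 in WT replicate 1 and 416 and 527 in the D3TA libraries. Of the 45 precursor-like cells of WT replicate 1, 39 belonged to a cluster with 215 CPM. Among named classes all 3 lay above every other class, the nearest being basophil- or mast-cell-like cells with 187 to 211 CPM. A shallow cluster within the mature class, with 976 cells of WT replicate 1, had 160 CPM in that library. An unnamed cluster closest to eosinophil markers had 284 and 327 in the D3TA libraries and 129 in WT replicate 1. B-cell-like cells (110 ± 7.67, n = 4) and monocyte-like cells (109 ± 18.4, n = 4) had the same level within their spread, and macrophage-like cells had 58.6 to 137. The place of Ncf1 therefore differed from that of Cybb in monocyte-like cells, which had rank 3 of 12 classes for Cybb and rank 6 for Ncf1. T-cell-like cells had 12.2 to 30 CPM of Ncf1.

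By class, Ncf4 was highest in precursor-like cells (317 to 514 CPM in 3 libraries) and immature neutrophil-like cells (496 and 311), which overlapped. The precursor-like class of WT replicate 1 had 412 CPM, but 39 of its 45 cells belonged to a cluster with 225. The finer precursor-like group described below had 353 and 194 CPM in the D3TA libraries. Mature neutrophil-like cells had 148 and 182 in the WT and 368 and 197 in the D3TA libraries. Monocyte-like cells had 114 and 111 against 332 and 89.9, and B-cell-like cells 113 and 111 against 170 and 85.5. Pooled over libraries, each class overlapped its neighbour in the order, except plasma-cell-like above erythroid-like cells. Within each library, mature neutrophil-like cells lay above monocyte-like and B-cell-like cells. The latter classes were nearly level with each other in the WT libraries. The class means of Ncf4 spanned 28.3-fold.

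Rac2 had the narrowest span, 11.4-fold. Its level was 934 and 772 CPM in D3TA immature neutrophil-like cells, 677 to 761 in precursor-like cells and 548 to 961 in mature neutrophil-like cells. Of the 45 precursor-like cells of WT replicate 1, 39 belonged to a cluster with 581 CPM. T-cell-like cells had 423 to 695 and NK-cell-like cells 475 to 577, above monocyte-like cells (235 to 403) and macrophage-like cells (209 to 311) in class means. Plasma-cell-like cells, with 127 ± 43.8 (SD, n = 4), lay below both of the latter. Among neighbours in the order of means only macrophage-like above dendritic-cell-like cells (91.0 to 170) was a step without overlap.

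**Figure D1:**
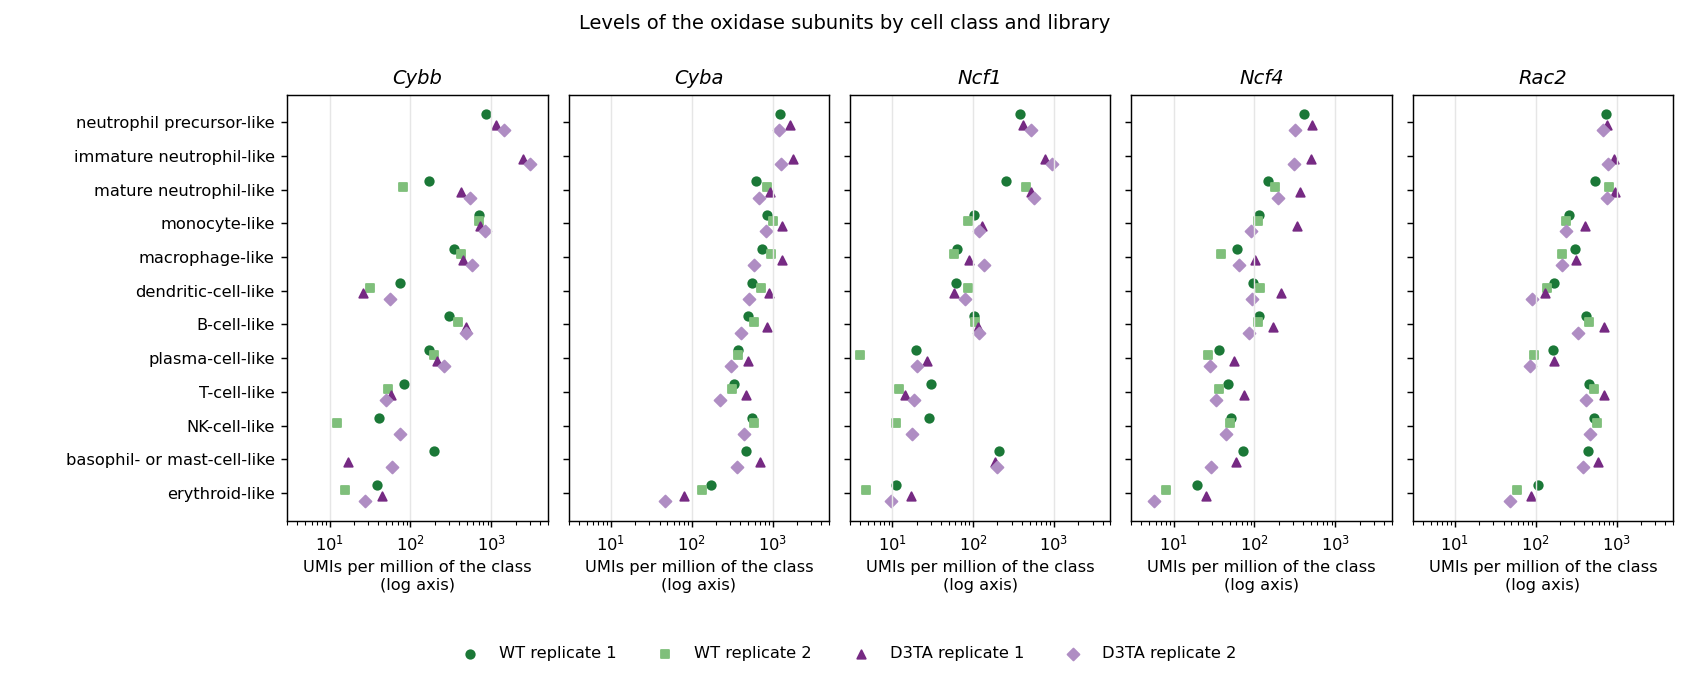
Level of each oxidase gene by cell class (x axis, CPM on a log scale, and y axis, 12 classes named from other genes), 1 point per library with at least 20 cells of the class. Cybb lies at 2453 and 3041 CPM in immature neutrophil-like cells and at 15.7 to 45.1 in erythroid-like cells, while Rac2 stays within an 11.4-fold span of class means.

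Within the neutrophil lineage a finer clustering gave 5 groups of cells with enough depth, ordered here by textbook markers. Left out of this series were an immature-like group of 150 and 240 D3TA cells and a mature-like group with 1031 cells of WT replicate 1. Elane marked the precursor-like group, Camp and Ltf the pair of immature-like groups, led by Chil3 and by Ifitm6 and Ltf (called Ltf-led here), Retnlg with Mmp8 an unnamed group, and Cxcr2 the mature-like group. Among the first 4, only the precursor-like group held at least 20 cells of a WT library. It had 39 cells of WT replicate 1 beside 236 and 125 D3TA cells. The series is therefore mainly a description of the D3TA spleens, and clustering used the same cells. Cybb stood at 281 and 391 CPM in the precursor-like group of D3TA replicates 1 and 2. It was at 1587 and 1916 in the Chil3-led group and at 2657 and 3241 in the Ltf-led group. It was lower, at 1534 and 2333, in the Retnlg-led group and at 116 and 146 in the mature-like group. The peak of Cybb over the mature-like end was 22.9-fold and 22.3-fold in the 2 libraries, and over the precursor-like end 9.46-fold and 8.29-fold. WT mature-like cells of the same cluster had 103 and 78.6 CPM.

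The other oxidase genes moved less along the same groups. Ncf1 was at 226 and 297 CPM in the precursor-like group, 784 and 963 in the Ltf-led group, and still at 392 and 408 in the mature-like group, where WT cells had 476 and 483. Its peak was 2.00-fold and 2.36-fold above the mature-like end, against 22.9-fold and 22.3-fold for Cybb. Cyba was at 1121 and 814 in the precursor-like group, 1864 and 1356 in the Ltf-led group and 797 and 570 in the mature-like group, 2.34-fold and 2.39-fold below its peak. Ncf4 was highest in the Chil3-led group (581 and 367) and was at 344 and 155 in mature-like cells, with 1.69-fold and 2.36-fold between its highest and lowest groups. Rac2 went from 565 and 463 in the precursor-like group to 1030 and 829 in the Retnlg-led group and 893 and 728 at the mature-like end, 1.15-fold and 1.14-fold below its peak, with 1.82-fold and 1.79-fold between its highest and lowest groups. The mature-like group was thus close to the peak for Rac2 and far below it for Cybb, in both D3TA libraries. These folds hold for the 5 groups only. At the clustering that named the classes, a smaller immature-like cluster of 144 and 239 D3TA cells had 316 and 169 CPM of Rac2. It had 566 and 370 of Cyba and 2606 and 2225 of Cybb. The larger immature-like cluster had 942 and 799 of Rac2, 1781 and 1297 of Cyba and 2451 and 3077 of Cybb.

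**Figure D2:**
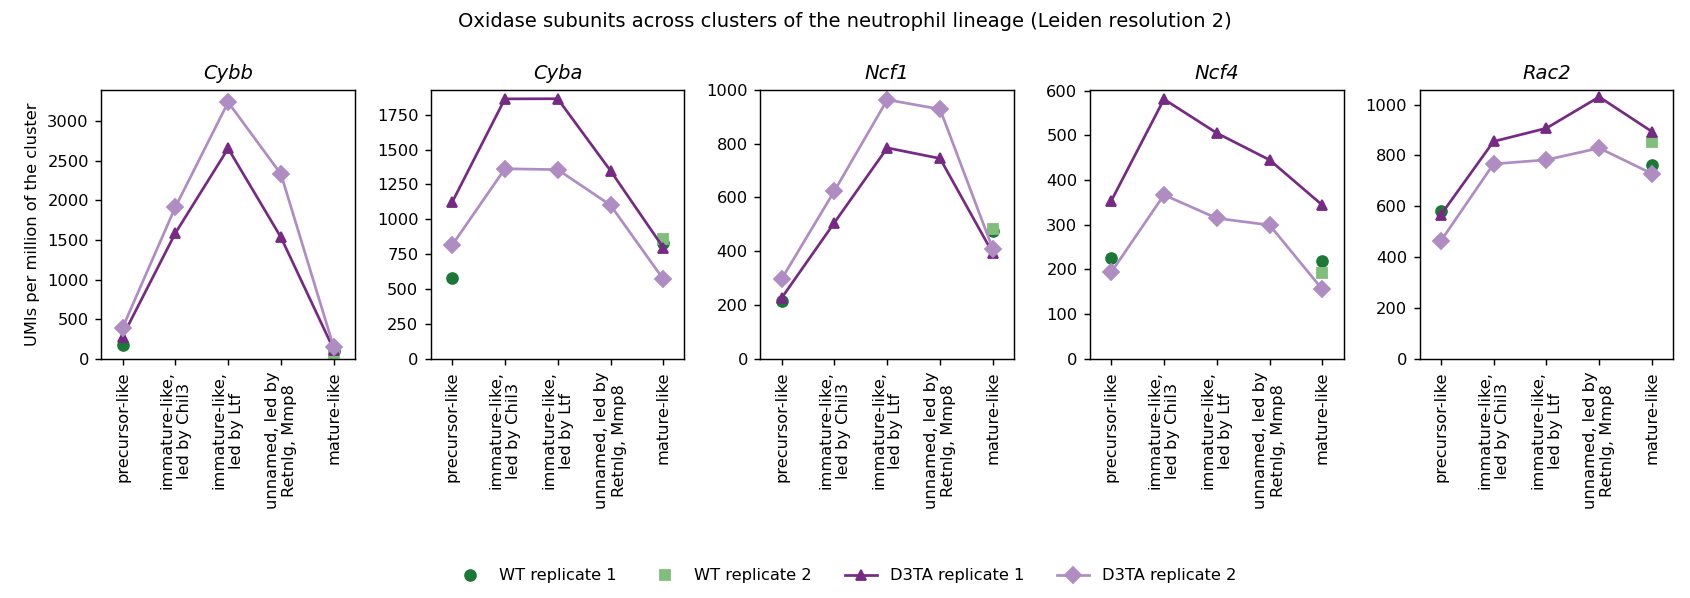
Level of each oxidase gene (y axis, CPM) in 5 clusters of the neutrophil lineage at the finer clustering (x axis, from precursor-like to mature-like), with lines for the D3TA libraries and points for WT libraries with at least 20 cells. Cybb peaks at 2657 and 3241 CPM in the Ltf-led group and ends at 116 and 146, while Rac2 ends within 1.15-fold of its peak.

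For counts per cell, every cell was thinned to 1000 UMIs and shallower cells were left out. Immature neutrophil-like cells again lay above monocyte-like cells for Cybb. These in turn lay above B-cell-like and mature neutrophil-like cells in each library. In D3TA replicate 2 the mature class lay above the B-cell-like class by CPM (551 against 494) and below it by share. A Cybb UMI was found in 88.6% of 1460 immature neutrophil-like cells of D3TA replicate 1 (exact 95% interval 86.9 to 90.2) and in 90.4% of 973 of D3TA replicate 2 (88.4 to 92.2), with 62 and 94 shallower cells left out. Intervals cover counting error only. Among monocyte-like cells the share was 43.7% and 47.4% in the WT and 49.4% and 45.4% in the D3TA libraries. Among mature neutrophil-like cells it was 16.0%, 5.60%, 21.0% and 22.9% in the same order, and among B-cell-like cells 22.9%, 28.5%, 39.9% and 34.5%. T-cell-like cells, used as a reference for RNA free in the droplets, gave 11.3%, 4.84%, 7.24% and 5.17%, and erythroid-like cells 7.42%, 2.40%, 6.08% and 5.02%. Median depths before thinning were 9362 and 8513 UMIs in the immature cells of the D3TA libraries and 7590 and 7712 in their T-cell-like cells. The T-cell-like share of WT replicate 2 lay inside the interval of its mature share (2.28 to 11.2), so the thinned shares do not separate Cybb in those mature cells from the reference. Summed over all cells of that library, Cybb was at 82.0 CPM in the mature (exact Poisson interval 60.1 to 109) and 52.8 in the T-cell-like class (48.5 to 57.3). With none of the cells thinned, the shares were 98.5% and 96.1% of D3TA immature neutrophil-like cells and 26.8% and 22.9% of D3TA T-cell-like cells.

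UMIs of all 5 members in 1 thinned cell were found in 9.04% (7.62 to 10.6) and 4.21% (3.04 to 5.67) of D3TA immature neutrophil-like cells. The share was 0.949% and 0.596% in D3TA mature neutrophil-like cells and 0.142% and 0 of 4071 in D3TA B-cell-like cells. At this depth the count is set by the genes with the fewest UMIs, and with none of the cells thinned all 5 members were found in 87.4% and 69.7% of immature neutrophil-like cells. Cells with no UMI of any member made up 0.343% and 1.44% of the thinned immature cells and 30% to 47.7% of T-cell-like cells over the 4 libraries. Nearly every thinned immature cell held a UMI of at least 1 oxidase gene.

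The first question of the genotype comparison was whether the spleen as a whole carried more oxidase RNA. Ncf1 and Cybb rose. On the CPM scale after edgeR's TMM correction of library sizes (TMM-scaled CPM), Ncf1 was at 78.5 and 78.9 in the WT and at 258 and 215 in the D3TA libraries, a log2 fold change of 1.59 ± 0.19 (SE) with an adjusted p of 0.0153 in edgeR's quasi-likelihood test with Benjamini-Hochberg adjustment. Cybb was at 232 and 302 against 776 and 686, 1.45 ± 0.24 with an adjusted p of 0.0349. Both D3TA libraries lay above both WT libraries for these genes. Cyba stood at 447 and 524 against 1059 and 536 (0.72 ± 0.37, adjusted p = 0.325) and Ncf4 at 86.5 and 86.9 against 293 and 119 (1.25 ± 0.43, adjusted p = 0.182), with D3TA replicate 1 far above D3TA replicate 2 for both. Rac2 was at 388 and 412 against 723 and 394, so the genotypes overlapped (0.48 ± 0.33, adjusted p = 0.44). The 2 of 5 oxidase genes called stand beside 6.08% of 18344 genes called in this fit, 5.70% being higher in D3TA. Separation of the libraries was found for 4 of the 5 genes and for 57.5% of all genes, so it says little about the oxidase. The calls of Ncf1 and Cybb ended when either WT library was left out, with log2 fold changes of 1.57 and 1.27 without WT replicate 1 and 1.58 and 1.64 without WT replicate 2.

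In a summed spleen, more cells of a type and more RNA per cell cannot be told apart, and the cells that held the UMIs differed between genotypes. The neutrophil lineage held 3.37% and 3.52% of the Cybb UMIs in the WT and 72.9% and 65.3% in the D3TA libraries. For Ncf1 it held 9.72% and 8.23% against 81.1% and 73.2%, and for Cyba 4.30% and 3.13% against 58.1% and 52.3%. For Ncf4 it held 5.64% and 4.14% against 65.1% and 60.9%, and for Rac2 4.08% and 2.62% against 45.3% and 43.1%. The lineage held 2.91% and 1.39% of all UMIs in the WT and 36.1% and 24.2% in the D3TA libraries, so each oxidase gene was over-represented in it in each library. B-cell-like cells held most of the Cybb UMIs of the WT spleens, 69.6% and 76.1%, against 5.22% and 24.1% in the D3TA spleens, while holding 55.3% and 61.3% of all UMIs in the WT. T-cell-like cells held 25.8% and 18.0% of the Rac2 UMIs of the WT libraries, beside 22.6% and 14.4% of all UMIs. With the neutrophil lineage and the unnamed clusters left out, the log2 fold changes were 0.09 for Cybb, -0.06 for Cyba, -0.22 for Ncf1, 0.02 for Ncf4 and -0.20 for Rac2, and edgeR called 0 of 17687 genes.

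**Figure D3:**
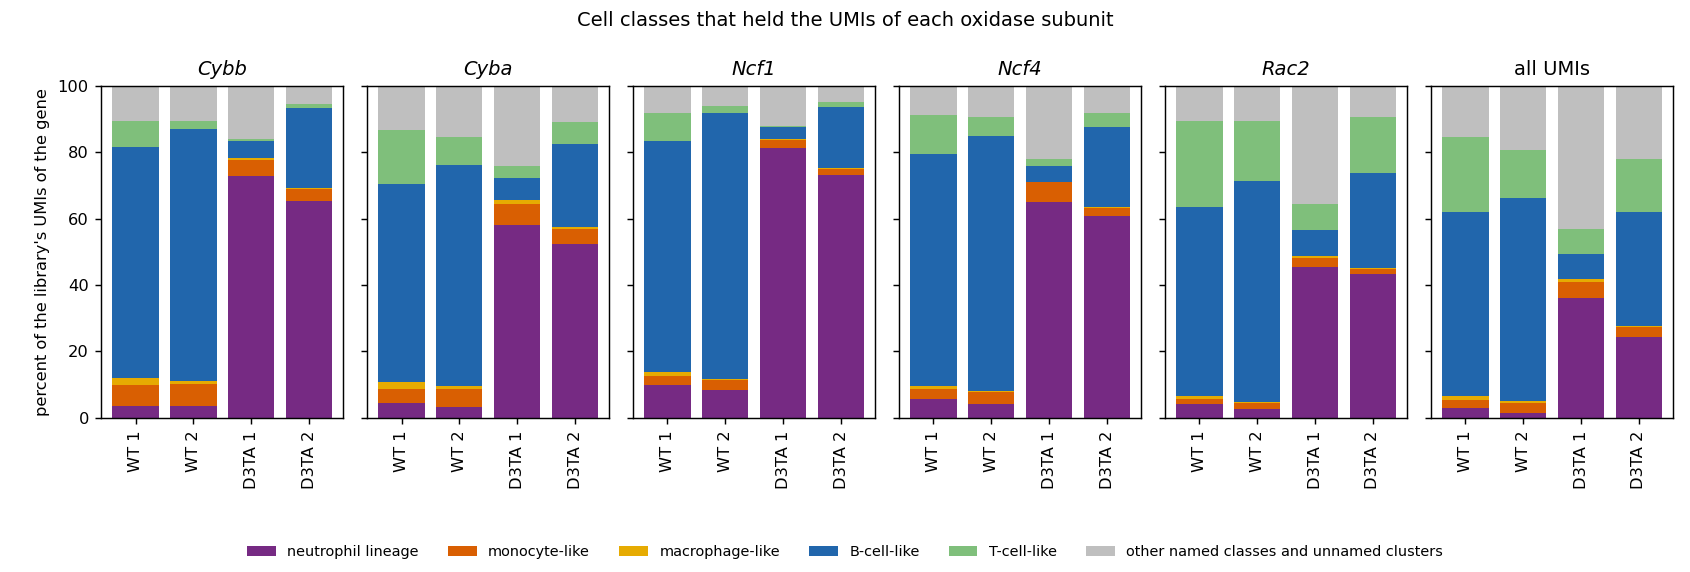
Share of each oxidase gene's UMIs, and of all UMIs, held by each cell class (y axis, percent; x axis, 4 libraries per gene), as stacked bars in which other means the remaining named classes and the unnamed clusters. The neutrophil lineage holds 72.9% and 65.3% of Cybb UMIs in the D3TA libraries and 3.37% and 3.52% in the WT libraries.

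The next question was whether cells of 1 class differed between genotypes. Summed over the neutrophil lineage, edgeR called 12.8% of 12891 genes and none of the 5 oxidase genes. Cybb was at 227 and 767 in the WT and at 1765 and 1945 TMM-scaled CPM in the D3TA libraries (1.90 ± 0.63, adjusted p = 0.0818), and Ncf1 at 222 and 470 against 653 and 684 (0.96, adjusted p = 0.182). Libraries of the genotypes did not overlap for 4 of the 5 genes, or 3 without the TMM correction, beside 62.5% of all genes. For Cybb and Ncf1 the WT libraries lay further apart than the D3TA libraries. The WT lineage cells were mostly mature-like (1121 and 136 cells, beside 3 and 14 immature-like), against 1301 and 537 mature-like beside 1522 and 1067 immature-like cells in the D3TA libraries.

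In mature neutrophil-like cells Cybb rose, from 142 and 72.0 TMM-scaled CPM in the WT to 551 and 605 in the D3TA libraries (2.41 ± 0.43, adjusted p = 0.0364). Ncf1 stood at 209 and 397 against 670 and 620 (1.10 ± 0.44, adjusted p = 0.169), Cyba at 516 and 745 against 1202 and 746, Ncf4 at 123 and 160 against 480 and 217, and Rac2 at 455 and 714 against 1254 and 836. The D3TA libraries lay above the WT libraries for all 5 genes, beside 55.2% of 8758 genes without overlap and 4.67% called. In CPM without the TMM correction 3 of the 5 separated, since Cyba was at 679 in D3TA replicate 2 against 849 in WT replicate 2 and Rac2 at 761 against 813. The call of Cybb was lost without D3TA replicate 1 (2.53) or D3TA replicate 2 (2.39), and clusters of the class differed between libraries. The class joined a cluster present in every library (144, 114, 771 and 355 cells of WT replicates 1 and 2 and D3TA replicates 1 and 2), a shallow one mostly of WT replicate 1 (976 of its cells) and one led by Retnlg and Mmp8 with 477 and 140 D3TA cells and 1 WT cell. Cybb in the last was at 745 and 1102 CPM, and in the first at 103 and 79.1 in the WT and 115 and 147 in the D3TA libraries. All 9 immature neutrophil markers were detected in the class in every library, with summed levels of 607 and 802 CPM in the WT and 13420 and 11950 in the D3TA libraries. Summed B cell markers were at 4645 and 1396 against 178 and 337.

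Restricted to the cluster present in every library, which was chosen after seeing the data, Cybb was at 99.7 and 73.8 TMM-scaled CPM in the WT and 137 and 150 in the D3TA libraries, a log2 fold change of 0.72 ± 0.24 with an adjusted p of 0.316. Ncf1 was at 460 and 453 against 463 and 419 (-0.05 ± 0.17, adjusted p = 0.965), and Cyba at 811 and 807 against 947 and 587 (-0.07 ± 0.24, adjusted p = 0.96). Ncf4 was at 215 and 180 against 409 and 158 (0.54 ± 0.37, adjusted p = 0.685), and Rac2 at 742 and 801 against 1062 and 744 (0.23 ± 0.21, adjusted p = 0.775). In that cluster 0.404% of 6183 genes were called, none of them an oxidase gene. Cybb was also not called in this class with the stricter cell filter (0.14), with doublets kept (0.55) or with coarser (0.43) or finer (0.44) clustering, where the class was cut differently.

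Monocyte-like cells gave no call for an oxidase gene, beside 1.62% of 10710 genes called. Cybb was at 697 and 709 in the WT and 792 and 782 TMM-scaled CPM in the D3TA libraries (0.16 ± 0.24, adjusted p = 0.773). Ncf4 stood at 113 and 112 against 360 and 84.8 (0.99 ± 0.57, adjusted p = 0.409), a difference carried by D3TA replicate 1 alone. Of the 5 genes, Cybb and Ncf1 (101 and 86.9 against 138 and 113) separated the genotypes, beside 51.3% of all genes. Of 11 mature neutrophil markers 10 were detected in each WT library, with Cxcl2 at 0, and all 11 in the D3TA libraries, with summed levels of 471 and 267 CPM against 13210 and 2135, and conventional dendritic cell markers at 1434 and 1791 against 652 and 1437. The part of these other cells in the oxidase values was not tested. At the finer clustering a monocyte-like group of 41 and 56 WT and 250 and 121 D3TA cells had 1594 and 1674 CPM of Cybb in the WT and 842 and 1153 in the D3TA libraries, the opposite order.

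In macrophage-like cells, edgeR called 0.472% of 8256 genes and no oxidase gene. Ncf1 was at 64.6 and 58.8 in the WT and 101 and 132 TMM-scaled CPM in the D3TA libraries (0.90 ± 0.33, adjusted p = 0.555), and Cybb at 348 and 419 against 514 and 553 (0.48 ± 0.34, adjusted p = 0.93). Libraries did not overlap for 3 of the 5 genes, the third being Ncf4, and for 33.3% of all genes. Of 11 mature neutrophil markers 9 and 6 were detected in the WT and 11 and 10 in the D3TA libraries, with summed levels of 515 and 171 CPM against 15720 and 20260. Their part in the oxidase values was not tested.

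In B-cell-like cells edgeR called 0% of 15170 genes, with 805 genes at an unadjusted p under 0.05, while DESeq2 called 216. Cybb was at 297 and 381 in the WT and 505 and 495 TMM-scaled CPM in the D3TA libraries (0.56 ± 0.25, adjusted p = 0.893). Ncf1, at 101 and 105 against 116 and 120, also kept the genotypes apart, so 2 of the 5 genes did so beside 34.6% of all genes. Cybb differed among the B-cell clusters within a library. In WT replicates 1 and 2 and D3TA replicates 1 and 2 it was at 258, 283, 335 and 376 CPM in the cluster led by Gm47782, Fcer2a and Ighd. It was at 547, 502, 655 and 710 in the cluster led by Otx2os1, Dnm3 and Adgre1, and at 602, 496, 512 and 644 in that led by Agbl1, Lmo7 and Nr3c2. Both of these clusters lay above the first in every library. All 11 mature neutrophil markers were detected in B-cell-like cells of every library, with summed levels of 231 and 72.5 CPM in the WT and 3064 and 1712 in the D3TA libraries, and their part was not tested.

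**Figure D4:**
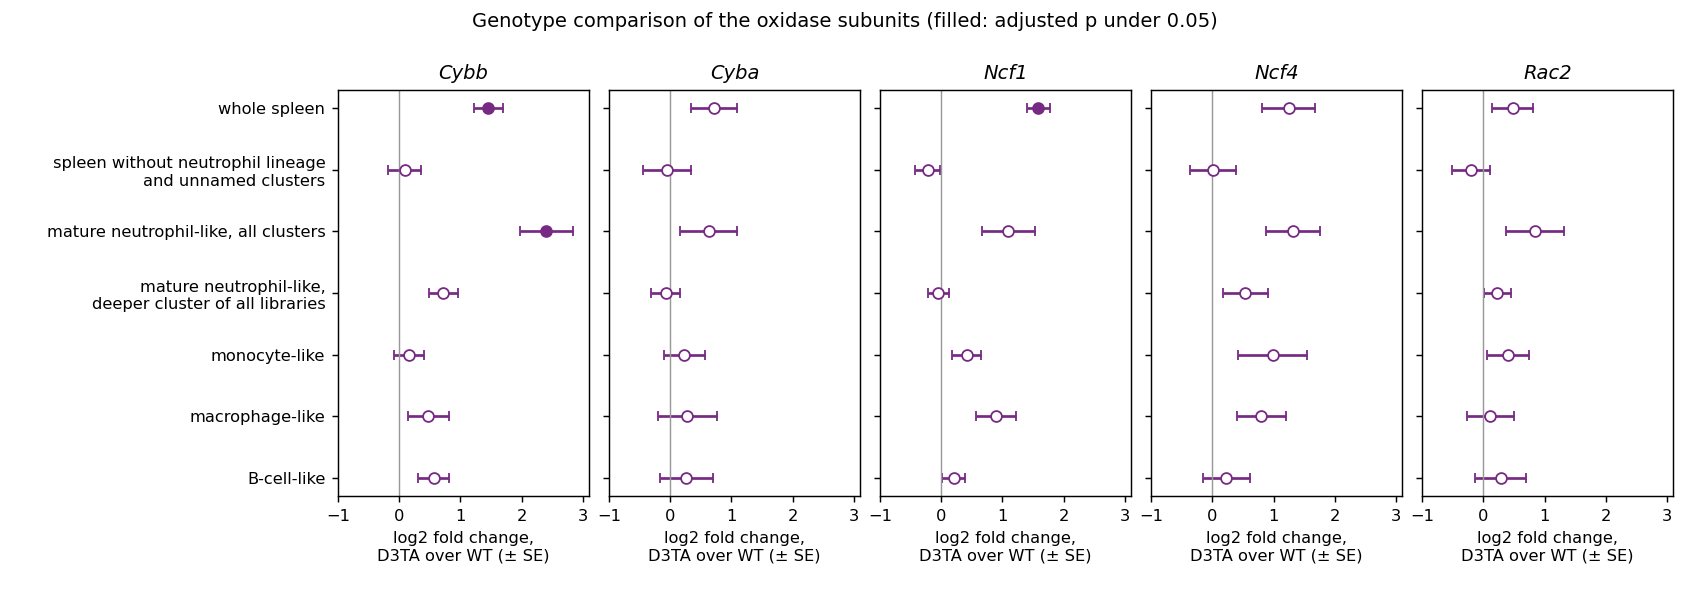
Genotype difference of each oxidase gene (x axis, log2 fold change D3TA over WT with its SE) in the whole spleen and in cell classes (y axis), where filled points have an adjusted p under 0.05 in edgeR's test. Filled points are Ncf1 and Cybb in the whole spleen and Cybb in all mature neutrophil-like clusters, and in the deeper mature cluster alone Cybb is at 0.72.

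Whether the genotype difference of Cybb itself differed between classes was tested as a class-by-genotype term, over 6 pairs of classes and 5 genes, 30 contrasts in all. Of these 2 were called, both for Cybb and both with mature neutrophil-like cells. The change was larger there than in B-cell-like cells by 2.26 ± 0.41 (adjusted p = 0.023), where 4.39% of 12210 genes were called. That of monocyte-like cells minus that of mature neutrophil-like cells was -2.60 ± 0.41 (adjusted p = 0.0263), where 0.655% were called. In the other 4 pairs of classes 0% of genes were called. With the deeper mature cluster alone, the first difference was 0.52 ± 0.29 (adjusted p = 0.513) and the second -0.87 ± 0.29 (adjusted p = 0.311), and neither was called. Both calls also ended without WT replicate 1 (2.65 and -2.91), D3TA replicate 1 (2.05 and -2.37) or D3TA replicate 2 (1.98 and -2.45).

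The 2 D3TA libraries differed in Cyba, Ncf4 and Rac2 in the classes that both held. The level in D3TA replicate 1 over that in D3TA replicate 2 was 1.35 to 2.21 for Cyba, 1.57 to 4.46 for Ncf4 and 1.12 to 2.09 for Rac2 over the 11 classes that both held. For Cybb it was 0.29 to 1.65 and for Ncf1 0.64 to 1.8, with no fixed direction. In B-cell-like cells the ratio was 2.13 for Cyba, 1.99 for Ncf4 and 2.09 for Rac2, beside 1.00 for Cybb and 0.954 for Ncf1. Among 930 genes of at least 50 CPM in all these classes, 52 (5.59%) were at least 25% higher in D3TA replicate 1 in every class, and Cyba was one of them. Cybb, Ncf1 and Ncf4 were under 50 CPM in some class and did not enter the 930, and Rac2 missed the limit with its ratio of 1.12. Of all genes at that level, 26.1% were at least 25% higher in B-cell-like cells, and 9.75% to 28.3% over the 11 classes. The ages of 12 and 16 months cannot be told apart from the libraries here.

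Genes around the oxidase were counted by list in the same fits. In the whole spleen, 5 of 28 tested partners and regulators rose and 0 fell, with a median log2 fold change of 0.18 beside 0 over all genes. In this fit 6.08% of all genes were called. Pak1, a kinase that acts downstream of Rac, went from a mean of 8.53 to 24.0 TMM-scaled CPM (1.49 ± 0.16, adjusted p = 0.0126). Fpr1, the receptor for formyl peptides that triggers the burst, rose by 3.66 ± 0.47 (adjusted p = 0.0185), Itgam, the integrin chain of complement receptor CR3, by 2.89 ± 0.37 (adjusted p = 0.019), and Fcgr3, an activating Fc receptor, by 2.79 ± 0.46 (adjusted p = 0.0357). Of the enzymes that supply NADPH, 5 of 10 rose and 0 fell, with a median of 1.12. Pgd went from 27.1 to 133 (2.29 ± 0.17, adjusted p = 0.00691), G6pdx from 13.8 to 70.2 (2.34 ± 0.19, adjusted p = 0.00811) and Tkt from 90.9 to 370 (2.03 ± 0.21, adjusted p = 0.0125), all 3 from the pentose phosphate pathway. Nadk, which makes NADP, rose by 1.10 ± 0.18 (adjusted p = 0.0339).

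Of the genes that handle superoxide and peroxide, 3 of 19 rose and 0 fell, beside 6.08% of all genes called, with a median of 0.57. They were Gsr, which recycles glutathione (2.99 ± 0.34, adjusted p = 0.0148), Gclm, a subunit of the first enzyme of glutathione synthesis (1.20 ± 0.20, adjusted p = 0.0371), and the peroxiredoxin Prdx5 (2.71 ± 0.47, adjusted p = 0.0389). Of 11 myeloid transcription factors 2 rose, Cebpe, a factor of granule-forming neutrophils (2.01 to 122, 5.93 ± 0.52, adjusted p = 0.00875), and Cebpd (3.68 ± 0.42, adjusted p = 0.0144). None of the 3 tested genes of other NADPH oxidases was called. With the neutrophil lineage and the unnamed clusters left out, none of these list genes was called. That fit called no gene at all, so this says nothing particular about the lists. Of the 13 named, Cebpe, Cebpd, Fpr1 and Itgam stayed called whichever library was left out. The calls of Gclm, Nadk, Pak1, Prdx5 and Tkt ended without either WT library (0.0837 to 0.359 as adjusted p), those of Fcgr3, G6pdx, Gsr and Pgd ended without WT replicate 2 (0.0523 to 0.108), and that of Gclm ended also without D3TA replicate 1 (0.0541).

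In mature neutrophil-like cells 2 of 28 partners and regulators rose and 1 fell, 1 of 16 genes of superoxide and peroxide handling and 2 of 9 of NADPH supply rose, and 0 of 11 transcription factors rose and 1 fell. Of all 8758 genes in this fit, 4.67% were called. Fpr1 (2.28 ± 0.40, adjusted p = 0.0346), Pak1 (1.76 ± 0.39, adjusted p = 0.0477), G6pdx (2.03 ± 0.37, adjusted p = 0.0366), Tkt (1.92 ± 0.38, adjusted p = 0.0409) and Gclm (2.10 ± 0.42, adjusted p = 0.0417) rose. In the cluster present in every library they were at 0.88, 0.40, 0.47, 0.43 and 0.95 in the same order, none of them called. Hvcn1, the voltage-gated proton channel that balances the charge the oxidase moves, fell from a mean of 104 to 18.3 TMM-scaled CPM (-2.57 ± 0.54, adjusted p = 0.0451). Irf8, a transcription factor of monocytes, dendritic cells and B cells, fell from 110 and 48.5 to 13.6 and 12.4 (-2.63 ± 0.46, adjusted p = 0.0345). Both calls ended in the cluster present in every library (-1.25 with an adjusted p of 0.567 for Hvcn1 and -1.04 with 0.437 for Irf8) and without WT replicate 1 (-1.55 with 0.195 and -1.89 with 0.122), and with the stricter cell filter, doublets kept or another Leiden resolution (0.0604 to 0.229). That of Hvcn1 ended also without D3TA replicate 1 (-2.18 with 0.131). The B cell markers given above were higher in the WT libraries of this class.

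In the summed neutrophil lineage Irf8 fell (-1.98 ± 0.30, adjusted p = 0.0158), the only call among 11 transcription factors, and stayed called whichever library was left out. Gclm rose (1.70 ± 0.43, adjusted p = 0.0405), the only call among 19 genes of superoxide and peroxide handling, and was lost without D3TA replicate 1 (0.148 as adjusted p) or D3TA replicate 2 (0.0608). Nox1, the catalytic chain of another NADPH oxidase and the only such gene tested there, fell from a mean of 9.57 to 2.62 TMM-scaled CPM (-1.89 ± 0.43, adjusted p = 0.0318), lost without either D3TA library (0.275 and 0.27) and with the replicate block (0.0885). In this fit 0 of 28 partners and regulators and 0 of 9 genes of NADPH supply were called, beside 12.8% of all genes. The stages that make up the lineage differed between genotypes, and B cell markers were higher in the WT libraries of its mature class. Their part in the Irf8, Gclm and Nox1 values was not tested. In the mature cluster present in every library Irf8 was at -1.04 and Gclm at 0.95, neither of them called. In the macrophage-like class 1 of 28 partners and regulators and 1 of 11 transcription factors rose, beside 0.472% of 8256 genes called. Itgam rose there from 18.7 to 105 (2.52 ± 0.37, adjusted p = 0.0136), beside the neutrophil markers given above. Its call ended without WT replicate 1 (2.34). Cebpe rose there too, from 0 CPM in both WT libraries to a mean of 42.1 ± 28.3 TMM-scaled CPM in the D3TA libraries (SD, n = 2, edgeR adjusted p = 0.0407), beside the same markers, and was not called with the stricter filter (0.0617), with doublets kept (0.0915) or with finer clustering (0.0621). In monocyte-like and B-cell-like cells 0 genes of any of these lists were called, beside 1.62% and 0% of all genes.

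Likeness of level was measured as Pearson's r of log2(CPM + 10) over the 12 class means, among 6579 genes, as a description. The classes share libraries and depth. The genes most like Cybb were Tom1 (0.92), Ceacam1 (0.91) and Aldh3b1 (0.88). Those most like Cyba were Scamp2 (0.93), Gnaq (0.91) and Ncf4 (0.89), so 1 oxidase gene was among the 3 nearest of another. Ncf1 was nearest to Rgs19 (0.96), Stxbp2 (0.94) and Kctd20 (0.93), and Ncf4 to Rgs19 (0.91), Pkm (0.90) and Ebi3 (0.90). Rac2 was nearest to Rcsd1 (0.96), Ccdc125 (0.94) and Map4k2 (0.94). Among the 5 genes themselves the closest pairs were Ncf1 with Ncf4 and Cyba with Ncf4 (both 0.89), and the most distant was Cybb with Rac2 (0.51).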

How the data were processed

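UMI counts per gene and barcode of 4 spleen libraries were analysed as deposited. The file headers name Cell Ranger 7.0.1 as the authors' tool for these counts, and the submitters' processing notes name mm10. The annotation release, and whether introns were counted, was not given in the sources used here. The oxidase genes and all lists were chosen with earlier results of these data known.

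Cells were kept with at least 500 UMIs, 250 genes and at most 10% mitochondrial UMIs. Scrublet (scanpy 1.11.5, expected rate 6%) removed 1.47% to 5.66% of cells per library. For WT replicate 1, where Scrublet's own threshold found 0 doublets, the other 3 libraries' mean threshold was applied after seeing the data. Clustering used 2000 variable genes without the oxidase genes and lists, 30 components, 15 neighbours and Leiden resolution 1 (0.5 and 2 as alternatives).

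UMIs were summed per library and class. edgeR 4.0.16 (TMM, filterByExpr, quasi-likelihood test, two-sided, Benjamini-Hochberg over all genes, adjusted p under 0.05) was the test and DESeq2 1.42.0 an alternative. Each mouse is 1 replicate, and 2 against 2 mice limit every test. List genes were named as the 4 with the smallest p among those called whose libraries did not overlap. On simulated counts with 200 changed genes, 4-fold changes were recovered at 68.5% in the whole spleen, 67.3% in mature neutrophil-like, 83.2% in monocyte-like, 75% in macrophage-like and 47% in B-cell-like cells. Recovery of 2-fold changes was 15.3%, 4.60%, 21.9%, 4.46% and 3% in the same order. In immature neutrophil-like cells no genotype test was made, because the WT libraries held 3 and 14 cells. Fits without the neutrophil lineage, without the low-UMI cluster, on the deeper mature cluster, with unnamed clusters in their closest class and with a crossed block were added after seeing the data. A few single genes were left out of the text. Python 3.11.15 and R 4.3.3 were used.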

Additional observations from a re-analysis of the deposited data

Results flagged for a closer look

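The genotype difference of Cybb differed between classes by a test of the difference itself. It was larger in mature neutrophil-like than in B-cell-like cells by 2.26 on the log2 scale, and monocyte-like minus mature neutrophil-like cells gave -2.60, both by a class-by-genotype term in edgeR. Both values include the Retnlg- and Mmp8-led cluster of D3TA cells and the shallow cluster of WT replicate 1 in the mature class, and without those clusters they were 0.52 and -0.87, neither of them called. The part of the cluster mix in the first pair of values was not tested beyond this.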

How the results depend on the processing

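With 2 mice per genotype, 1 library decided several calls. In the whole spleen 2 oxidase genes were called, 0 to 5 when each replicate was left out in turn (0 without either WT library, 5 without D3TA replicate 2) and 0 without the neutrophil lineage and unnamed clusters. In the neutrophil lineage 0 were called, 0 to 4 with a replicate left out (4 without WT replicate 2), 2 with no low-count filter, and 1 each with DESeq2, the stricter cell filter, doublets kept or without the low-UMI cluster. In mature neutrophil-like cells 1 was called, 0 to 4 with a replicate left out (0 without either D3TA library, 4 without WT replicate 2), 2 with no low-count filter, and 0 with the stricter filter, doublets kept, either other Leiden resolution or the deeper cluster alone. Monocyte-like cells gave 0, 0 to 4 with a replicate left out (4 without D3TA replicate 2) and 1 with no low-count filter. Macrophage-like cells gave 0 to 1 (1 without either D3TA library) and B-cell-like cells 0 to 3 (3 without D3TA replicate 2). Of the 30 class differences 2 were called, 0 to 3 with a replicate left out (0 without WT replicate 1 or either D3TA library), and 0 with doublets kept or the deeper cluster. The Cybb difference of mature minus B-cell-like cells was -0.049 with doublets kept. The counts of all genes called also moved widely between the fits of a class, with ranges given below. The oxidase counts are therefore not read as particular to these genes. The cause of these changes was not tested.

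Signs of uncalled values also changed. Without the neutrophil lineage the whole-spleen values were -0.056 for Cyba, -0.22 for Ncf1 and -0.20 for Rac2. In the deeper mature cluster Cyba was -0.073 and Ncf1 -0.047. In monocyte-like cells Cybb was -0.56, -0.52 and -0.49 with the stricter filter, doublets kept and Leiden resolution 2, and Cyba -0.062 and -0.011 with the first 2. B-cell-like Ncf4 was -0.085 with the stricter filter and -0.0081 with doublets kept. With a replicate left out, the lowest value was that without D3TA replicate 1 and the highest that without D3TA replicate 2 in each of these cases. Whole-spleen Rac2 ran from -0.020 to 0.85, monocyte-like Cyba from -0.27 to 0.59, Ncf4 from -0.41 to 1.67 and Rac2 from -0.16 to 0.80. Macrophage-like Cyba ran from -0.59 to 0.81 and Rac2 from -0.38 to 0.43, with -0.14 without WT replicate 2, and B-cell-like Cyba from -0.45 to 0.70, Ncf4 from -0.41 to 0.64 and Rac2 from -0.41 to 0.72.

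Mice with the same replicate number did not deviate together (correlations of -0.18 to 0.04 over the 6 fits), and the labels do not say whether the numbers pair them. The replicate block left the oxidase calls at 2 in the whole spleen, 1 in mature neutrophil-like cells and 0 elsewhere, while the genes called went from 1647 to 1017 in the lineage, 409 to 991 in mature, 173 to 776 in monocyte-like and 39 to 144 in macrophage-like cells. A crossed block, added after the data were seen, called 123 genes in macrophage-like and 547 in B-cell-like cells and 0 oxidase genes. DESeq2 called 2440 genes in the whole spleen against 1116, 399 in monocyte-like cells against 173 and 216 in B-cell-like cells against 0. With no low-count filter 3087, 1327, 1291 and 287 genes were called in the lineage, mature, monocyte-like and macrophage-like cells. The stricter filter gave 2560, 27 and 1087 in the first 3, and leaving out the low-UMI cluster 2617 in the lineage and 209 in mature cells. In mature cells doublets kept, Leiden resolutions 0.5 and 2 and the deeper cluster gave 10, 13, 7 and 25, and in monocyte-like cells doublets kept and resolution 2 gave 751 and 970. With a replicate left out the counts ran from 239 to 5534 in the whole spleen, 591 to 4826 in the lineage, 23 to 3457 in mature, 104 to 2954 in monocyte-like, 74 to 685 in macrophage-like and 0 to 3010 in B-cell-like cells. Other Leiden resolutions do not apply to the whole spleen. The mean Cybb level of D3TA immature neutrophil-like cells, 2747 CPM, was 2220 with the stricter filter, 1969 with doublets kept and 2122 at Leiden resolution 2, where the class was cut differently. The share of these cells with all 5 members, 6.63% at 1000 UMIs, was 31.9% at 2000 and 78.6% without thinning. Depth limits this share, and the shallow cells of WT replicate 1 limit every WT class value.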

Other observations

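Unnamed clusters entered no comparison between classes. A cluster of 1521 cells, 1505 of them from D3TA replicate 1 and led by Mcc, Robo1 and Sox5, was closest to the B cell markers and had 462 CPM of Cybb, 97.5 of Ncf1 and 807 of Rac2 in that library. The same library's B-cell-like cells had 494, 114 and 700 CPM of these genes.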
